A study of Mus musculus with 6 samples.

Results

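*Lin28b*, *Hmga1*, *Hmga2*, *Igf2bp1*, *Igf2bp2* and *Igf2bp3* are genes of the embryo and of tumours whose mRNAs are well known targets of the let-7 miRNAs. These 6 genes, of the 40482 mouse genes with a known strand, were taken by name, and every cluster of AGO2 reads that overlapped one of their mm10 gene bodies on the same strand was described. The clusters came from AGO2 chimeric eCLIP of whole brain at postnatal day 0 (P0), a crosslinking and immunoprecipitation (IP) assay in which the miRNA can be ligated to the RNA held by the same AGO2 molecule. There was 1 WT library and there were 2 *Mov10* Deletion libraries, each set against its own size-matched input, to ask how loss of the RNA helicase MOV10 alters AGO2 binding. All mice were C57Bl/6J. According to the study's methods, *Mov10* Deletion mice carried a floxed *Mov10* allele, deleted by Cre recombinase driven from *Emx1*, and came from a cross to heterozygous *Mov10* mutants. *Emx1*-Cre is active in the excitatory lineage of cortex and hippocampus, so a whole *Mov10* Deletion brain also holds many cells in which Cre does not act. The methods nevertheless report a large fall in MOV10 protein in lysates of P0 *Mov10* Deletion brain. The labels give the control brain as WT, with no further allele.

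let-7 miRNAs accumulate as cells leave the embryonic state, and pair through their seed, the nucleotides next to the 5' end, with sites in the 3'UTR of mRNAs whose output they lower. *Lin28b* encodes an RNA-binding protein that holds back the maturation of let-7, so that *Lin28b* and let-7 keep each other in check. The *Hmga* genes encode chromatin proteins that bind AT-rich DNA, and the *Igf2bp* genes encode RNA-binding proteins that stabilise and localise mRNAs in the fetal brain.

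The let-7 miRNAs that target clusters named in these genes were let-7b, let-7c and let-7g. Their mature sequences (RefSeq, GRCm38.p6) are shown 5' to 3', with the seed, nucleotides 2 to 8, in capitals, because the same 7 nucleotides define every site described here.
let-7b-5p: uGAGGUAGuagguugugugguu
let-7c-5p: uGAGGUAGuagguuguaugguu
let-7g-5p: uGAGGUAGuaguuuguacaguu
All 3 share the seed GAGGUAG with the other let-7 members and with miR-98-5p, so a seed match cannot tell one family member from another.

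The match to this seed, CTACCTC on the sense strand, occurred 15 times in the 3'UTRs of the 6 genes, taking for each the longest 3'UTR of a protein-coding transcript (GENCODE vM39, GRCm39). *Lin28b*, *Hmga2* and *Igf2bp1* had 4 matches each, and *Hmga1*, *Igf2bp2* and *Igf2bp3* had 1 each. Of the longest 3'UTRs of 20953 protein-coding genes, 11.9% held at least 1 match and 15 held at least 4, and 3 of those 15 belonged to the genes described here. Length plays into this, since the 3 genes with 4 matches each have a 3'UTR of at least 3000 nt. Among the 4663 3'UTRs that long, 25.3% held at least 1 match and 9 held at least 4. The genes are known let-7 targets, so these counts describe them and are not evidence about them. The 30-nt stretches below run 5' to 3' on the mRNA strand with the seed match in capitals, in GRCm39, and are those under an AGO2 cluster in all 3 libraries, together with the *Lin28b* match beside a miR-30 match and the single match of *Igf2bp3*. All lie in the 3'UTR, and nt counts from the first base after the stop codon.
*Hmga1* nt 814 to 820, plus strand, chr17:27782244-27782273: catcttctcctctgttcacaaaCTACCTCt
*Igf2bp2* nt 1313 to 1319, minus strand, chr16:21878223-21878252: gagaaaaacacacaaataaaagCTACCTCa
*Lin28b* nt 36 to 42, minus strand, chr10:45257118-45257147: tcccttcacccgggcgggaagtCTACCTCa
*Lin28b* nt 3998 to 4004, minus strand, chr10:45253156-45253185: agcttggaaatgatggcaccgaCTACCTCt
*Lin28b* nt 2582 to 2588, minus strand, chr10:45254572-45254601: aaattctgtttacagcacatggCTACCTCc
*Hmga2* nt 1295 to 1301, minus strand, chr10:120198892-120198921: caataatccccactcctcaataCTACCTCt
*Igf2bp1* nt 1715 to 1721, minus strand, chr11:95852604-95852633: aggcagtgctgtgcgaagtaaaCTACCTCa
*Igf2bp1* nt 5353 to 5359, minus strand, chr11:95848966-95848995: ctgtttcacttttggttttaatCTACCTCt
*Igf2bp3* nt 548 to 554, minus strand, chr6:49063721-49063750: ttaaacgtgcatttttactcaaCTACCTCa
The *Igf2bp2* match is followed 17 nt later by a 6-nt match to nucleotides 2 to 7 at nt 1330, so that pair lies within a single cluster. In *Igf2bp1* a 6-nt match at nt 1734 follows the match at nt 1715 under the same cluster in every library. *Hmga2* has such a pair at nt 2591 and nt 2611, under a WT cluster alone.

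The 6 genes held 119 AGO2 clusters in WT and 215 in each *Mov10* Deletion library. The 215 had the same coordinates in both, as did 614927 clusters over the whole genome. Which positions a cluster covers is therefore the same in both, and is not agreement between replicates. A cluster was called enriched when its log2 IP over input was at least 3 and its −log10 p was at least 3, both as the authors deposited them. By this rule 3 WT clusters were enriched (2.52%, exact Clopper-Pearson 95% interval 0.523% to 7.19%), against 12 of *Mov10* Deletion replicate 1 (5.58%, interval 2.92% to 9.55%) and 8 of replicate 2 (3.72%, interval 1.62% to 7.2%). Over all clusters of each library 2.11%, 5.18% and 3.10% were enriched, and each interval held the share of its whole library. The intervals treat clusters as independent, but several enriched clusters adjoin within a single stretch. They can therefore be too narrow, and are not a test of the 6 genes against the library. The order of these counts varied with the setting. With at least 16 inferred IP reads asked of every library, 3 clusters were left in WT, 2 in replicate 1 and 3 in replicate 2. A WT call over 1 input read already needs 16, so only the *Mov10* Deletion counts could fall. With a −log10 p of at least 5 there were 2, 3 and 4. With a log2 of at least 2 there were 7, 15 and 11, with WT again lowest and replicate 1 highest. In whole-brain libraries, fewer cells with an mRNA and less mRNA per cell cannot be told apart.

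At least 1 enriched cluster was found in 2 of the 6 genes in WT (*Lin28b* and *Hmga1*), in 5 in *Mov10* Deletion replicate 1 (all but *Igf2bp3*) and in 2 in replicate 2 (*Lin28b* and *Igf2bp1*). Among all genes with an AGO2 cluster the share with an enriched one was 19.1% in WT, 41.5% in replicate 1 and 32.5% in replicate 2. The 6 genes held a median of 19 clusters each in WT and 40.5 in each *Mov10* Deletion library, against 7, 10 and 10 over all genes, and the part this plays in the gene counts was not tested. With at least 16 inferred IP reads, which could not lower the WT count, the gene counts were 2, 2 and 1. A −log10 p of at least 5 gave 2, 3 and 2, and a log2 of at least 2 gave 3, 5 and 3. The plot of all clusters by gene shows how few stood above the threshold.

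**Figure D1:**
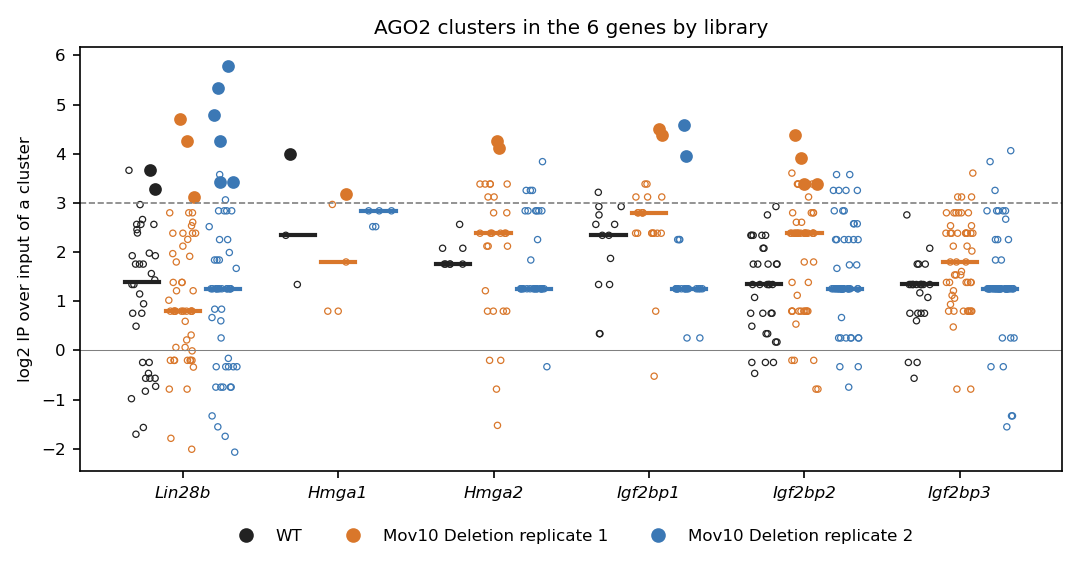
Each point is 1 AGO2 cluster, placed by gene and library, with its log2 IP over input on the y axis. Large filled points are enriched clusters, bars are medians and the dashed line marks a log2 of 3. The highest point is a *Lin28b* cluster of *Mov10* Deletion replicate 2 at 5.78, and *Igf2bp3* has no filled point in any library.

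The reads behind a cluster were inferred from its deposited ratio and p-value. Enriched clusters rested on 23 to 38 inferred IP reads in the WT library, on 10 to 43 in the first *Mov10* Deletion library and on 8 to 23 in the second, over 1 to 5 input reads. Over 1 input read, a cluster needed 16 IP reads to be called in WT, but 9 in replicate 1 and 8 in replicate 2, so the call asked for fewer reads in *Mov10* Deletion. Only pairs with at least 1 read on each side were tried, so a side without reads could not be found. A 1 may also stand for a floor set in the processing rather than for a read.

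Target clusters, which come from chimeric reads and name a miRNA, numbered 9 for WT in the 6 genes. *Mov10* Deletion replicate 1 had 9 as well, and replicate 2 had 5. let-7 was named in 2, 2 and 1 of these, all in *Hmga1* and *Igf2bp2*. Genes with a let-7 target cluster made up 6.63% of the genes with an AGO2 cluster in WT, 9.95% in replicate 1 and 4.87% in replicate 2. *Lin28b*, *Hmga2*, *Igf2bp1* and *Igf2bp3* had no let-7 target cluster in any library, although all carry seed matches. Absence from this list is not absence of binding, because the lowest score listed was 3 in every library and weaker clusters were not analysed here.

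*Hmga1* was the gene with a let-7 target cluster in all 3 libraries. The WT cluster named let-7g-5p (score 3.0, chr17:27563270-27563355 in mm10, nt 792 to 877). *Mov10* Deletion replicate 1 named let-7c-5p (score 3.0) and replicate 2 named let-7g-5p (score 4.82), both at chr17:27563251-27563351, nt 773 to 873. All of them span the single *Hmga1* seed match shown above. The scores of 3.0 are the lowest listed, and with a score of at least 5 *Hmga1* kept no let-7 target cluster in any library. Of windows of 86 nt cut from all 3'UTRs, 0.569% hold CTACCTC, and of windows of 101 nt, 0.676%.

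The AGO2 cluster over this match had a log2 of 4.0 in WT (−log10 p 7.72, 38 IP and 2 input reads), the highest of the gene. It was 2.97 in *Mov10* Deletion replicate 1 (18 and 4 reads) and 2.52 in replicate 2 (12 and 5 reads). From high to low the order was WT, replicate 1, replicate 2, but their 95% counting intervals, 2.05 to 7.1, 1.37 to 4.99 and 0.91 to 4.37, overlapped. The adjoining cluster at nt 826 to 873 was enriched in replicate 1, at 3.19 (−log10 p 5.83), and stood at 2.52 in replicate 2. *Hmga1* values carry a further limit, since 93.6% of the 25-nt stretches of its 3'UTR also occur in its copy *Hmga1b*, and reads could be split between them or dropped. *Hmga1b* itself had 4 clusters in WT with a highest log2 of 1.22 and 1 cluster in each *Mov10* Deletion library, at 2.12 and −0.33, and no target cluster.

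*Igf2bp2*, which encodes a protein that binds *Igf2* and other mRNAs, had a let-7b-5p target cluster in WT (score 7.56, chr16:22059432-22059526, nt 1267 to 1361) and in *Mov10* Deletion replicate 1 (score 6.00, chr16:22059413-22059520, nt 1273 to 1380). Replicate 2 listed none there. The AGO2 cluster over the match had a log2 of 2.93 in WT (−log10 p 6.10, 45 and 5 reads), just under the threshold. It was 3.90 in replicate 1 (−log10 p 13.2, 43 and 5 reads), where it was enriched, and 1.74 in replicate 2 (7 and 5 reads). The WT value lay between the 2 *Mov10* Deletion values, which were farther from each other than either was from WT. The counting intervals were 1.6 to 4.62 in WT, 2.57 to 5.60 in replicate 1 and −0.13 to 3.74 in replicate 2, and all 3 overlapped. The highest *Igf2bp2* value of replicate 1 was intronic (chr16:22149221-22149249, log2 4.38, 12 and 1 reads), and an enriched cluster also spanned nt 1 to 78 there (3.38, 12 and 2 reads), where replicate 2 had 2.25. Other target clusters of the gene were intronic and named miR-124-3p in WT and miR-666-3p in replicate 1.

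*Igf2bp2* had 4 enriched clusters in *Mov10* Deletion replicate 1, and its let-7b-5p target cluster overlapped 1 of them. *Lin28b* had 2 enriched clusters in WT and then 3 and 6 in the *Mov10* Deletion replicates. No let-7 target cluster overlapped those of *Lin28b*. Its first let-7 match, at nt 36 just past the stop codon, was under clusters of similar log2, 2.39 in WT (31 and 5 reads), 1.91 in replicate 1 (13 and 6 reads) and 1.99 in replicate 2 (5 and 3 reads). None was enriched. Its last match, at nt 3998, was under clusters of 2.66 in WT (15 and 2 reads), 2.80 in replicate 1 (8 and 2 reads) and 4.25 in replicate 2 (8 and 1 reads, −log10 p 3.42), where the cluster was enriched. The 2 *Mov10* Deletion values rest on the same number of IP reads and differ by 1 input read. In WT a target cluster over this last match named miR-124-3p, a neuronal miRNA, with a score of 3.12 (nt 3987 to 4066), and not let-7.

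The *Lin28b* match at nt 2582 was covered by an AGO2 cluster in WT (log2 2.46, 26 and 4 reads), but by none in either *Mov10* Deletion library. It lies 16 nt downstream of a match to miR-30, whose letters can be seen in lower case in the stretch above. That miR-30 match, TGTTTAC, was inside a target cluster in each of the 3 libraries.
miR-30c-5p: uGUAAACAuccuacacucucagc
*Lin28b* nt 2566 to 2572, minus strand, chr10:45254588-45254617: tcattcacacaagtgaaaattcTGTTTACa
The target cluster named miR-30c-5p in WT (score 4.90, nt 2545 to 2598) as well as miR-30b-5p (score 6.00), and miR-30c-5p alone in *Mov10* Deletion replicate 1 (score 3.87) and replicate 2 (score 3.0), both at nt 2545 to 2625. The *Mov10* Deletion libraries had no AGO2 cluster there. TGTTTAC is held by 0.492% of 54-nt windows and by 0.759% of 81-nt windows of all 3'UTRs.

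Other target clusters of the *Lin28b* 3'UTR named miRNAs that are abundant in the brain. In WT, a cluster at nt 2159 to 2272 named miR-9-5p (score 4.71) and miR-125b-5p (score 3.62) and held a 7-nt match to miR-125b, CTCAGGG, at nt 2260, which 1.17% of 114-nt windows hold. miR-125b is the vertebrate form of lin-4, the regulator of lin-28 in worms.
miR-125b-5p: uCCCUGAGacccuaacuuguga
*Lin28b* nt 2260 to 2266, minus strand, chr10:45254894-45254923: atgctcaggacaaagaactttgCTCAGGGa
The AGO2 cluster across this match differed little between libraries, with a log2 of 2.97 in WT (37 and 4 reads, nt 2207 to 2340), 2.80 in *Mov10* Deletion replicate 1 (16 and 4 reads) and 2.52 in replicate 2 (12 and 5 reads), both at nt 2217 to 2408. The *Mov10* Deletion cluster ends just short of the *Lin28b* let-7 match at nt 2410, which no AGO2 cluster covered in any library. miR-124-3p was named at nt 3177 to 3227 and nt 690 to 772 in WT, and at nt 697 to 727 in replicate 2. In replicate 1, target clusters named miR-466i-5p at nt 332 to 417 (score 7.94) and miR-706 in an intron, and replicate 2 had an intronic one of miR-124-3p. The WT cluster at nt 714 to 756 had a log2 of 3.66 but a −log10 p of 2.82, just short of the threshold.

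By −log10 p, the highest cluster was that of *Igf2bp2* over its let-7 match in *Mov10* Deletion replicate 1 (13.2, 43 and 5 reads). In WT the highest log2 of the 6 genes was that of *Hmga1* over its let-7 match (4.0). The highest log2 over all libraries was in a stretch of the *Lin28b* 3'UTR away from any let-7 match. In *Mov10* Deletion replicate 2, 4 adjoining clusters at nt 2998 to 3121 had log2 values of 3.42, 4.78, 5.78 and 5.34, with up to 23 IP reads over 1 input read. WT had an enriched cluster at nt 2977 to 3064 with a log2 of 3.28 (23 and 2 reads). In replicate 1 all 4 of these clusters stood at 0.80, with 1 IP and 1 input read. A cluster with 1 read on each side is hardly measured, and its 95% counting interval, −5.50 to 7.09, overlapped those of the highest cluster of replicate 2 (3.16 to 11.1) and of the WT cluster (1.26 to 6.41). WT also had an enriched cluster in the coding sequence (chr10:45381230-45381337, log2 3.66, 30 and 2 reads), while the *Mov10* Deletion clusters nearest to it had 2.54 and 2.26 in replicate 1 and 0.25 and −0.33 in replicate 2. The 3 enriched *Lin28b* clusters of replicate 1 were all intronic, the highest at chr10:45471540-45471561 with a log2 of 4.71 (15 and 1 reads), where replicate 2 had 1.84.

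**Figure D2:**
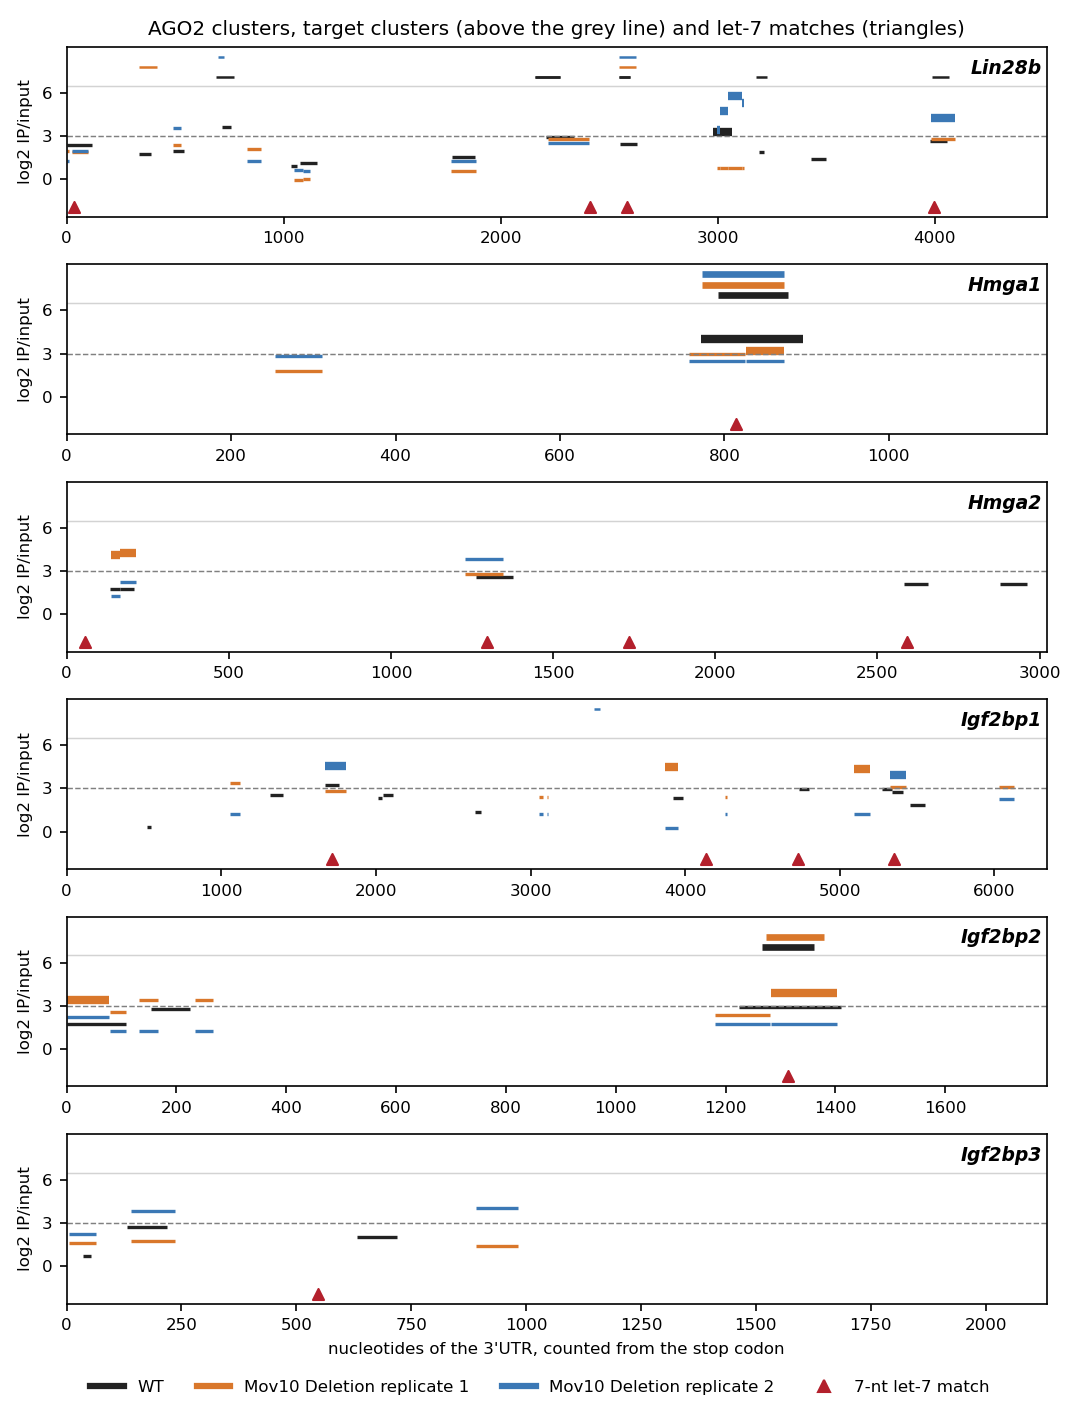
The x axis of each panel is the 3'UTR of 1 gene in nucleotides from the stop codon, and the y axis is the log2 IP over input of each AGO2 cluster, drawn as a line over the nucleotides it covers, thick where enriched. Lines above the grey rule are target clusters, thick where let-7 was named, and have no y value. Triangles are 7-nt let-7 matches, and let-7 target clusters stand over the triangle of *Hmga1* and of *Igf2bp2* and over no other.

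*Hmga2*, a classic let-7 target with 4 seed matches, had no target cluster of any miRNA. Its match at nt 1295 was under clusters of 2.56 in WT (7 and 1 reads), 2.80 in *Mov10* Deletion replicate 1 (8 and 2 reads) and 3.84 in replicate 2 (6 and 1 reads, −log10 p 2.46). All 3 were above 2 and none was enriched. Its match at nt 2591 was covered in WT (log2 2.08, 5 and 1 reads) and in neither *Mov10* Deletion library, and the other matches, at nt 58 and nt 1733, were covered nowhere. The 2 enriched clusters of the gene adjoined each other at nt 136 to 214 in replicate 1, with log2 values of 4.12 and 4.26 (10 and 11 IP reads over 1 input read). The same clusters had 1.25 and 2.25 in replicate 2, with 1 and 2 IP reads, and WT had 1.76 there with 4 IP reads.

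*Igf2bp1* had the longest 3'UTR of the 6 genes, 6337 nt. Its match at nt 1715 was under clusters of 3.22 in WT (11 and 1 reads, −log10 p 2.07), 2.80 in *Mov10* Deletion replicate 1 (4 and 1 reads) and 4.58 in replicate 2 (10 and 1 reads, −log10 p 4.39). Its match at nt 5353 was under clusters of 2.76 in WT (8 and 1 reads), 3.12 in replicate 1 (5 and 1 reads) and 3.95 in replicate 2 (13 and 2 reads, −log10 p 5.14). Both clusters were enriched in replicate 2 alone, on 10 and 13 IP reads. The matches at nt 4136 and nt 4730 were not covered, though a WT cluster (log2 2.93, nt 4735 to 4801) began within the second of them. Replicate 1 had its 2 enriched clusters elsewhere, at nt 3867 to 3953 (log2 4.50) and nt 5093 to 5198 (4.38), where replicate 2 had 0.25 and 1.25. The only target cluster in this 3'UTR named miR-127-3p, in replicate 2 (score 4.0, nt 3410 to 3449), where no 6-nt match to its seed was found. In WT an intronic target cluster named miR-466h-3p.

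*Igf2bp3* was the one member without an enriched cluster in any library. It had 25 clusters in WT and 53 in each *Mov10* Deletion library, most of them intronic. Its single let-7 match, at nt 548, was under no AGO2 cluster in any library. Its highest log2 was 2.76 in WT (8 and 1 reads, nt 131 to 218), 3.61 in replicate 1 (7 and 1 reads, intronic) and 4.06 in replicate 2 (7 and 1 reads, nt 890 to 982). The last of these missed the threshold by its −log10 p of 2.93. Its target clusters, 2 in replicate 1, named miR-29a-3p and miR-375-3p.

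Over the 6 genes, AGO2 clusters covered 9 of the 15 let-7 matches in WT and 7 in *Mov10* Deletion, whose 2 libraries list the same clusters here. All 7 were among the 9 of WT. A match counted only when the whole of it lay in a cluster. The clusters together covered 14.2% of the 18980 nt of 3'UTR in WT and 13.1% in each *Mov10* Deletion library, against 60% and 46.7% of the matches. The matches are few, the genes were chosen as known let-7 targets, and no other motif was set beside let-7. A preference of AGO2 for these matches was therefore not tested. Clusters over a match had log2 values from 2.08 to 4.0 in WT, from 1.91 to 3.90 in replicate 1 and from 1.74 to 4.58 in replicate 2. One of them was enriched in WT, 1 in replicate 1 and 3 in replicate 2, each time over another match.

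**Figure D3:**
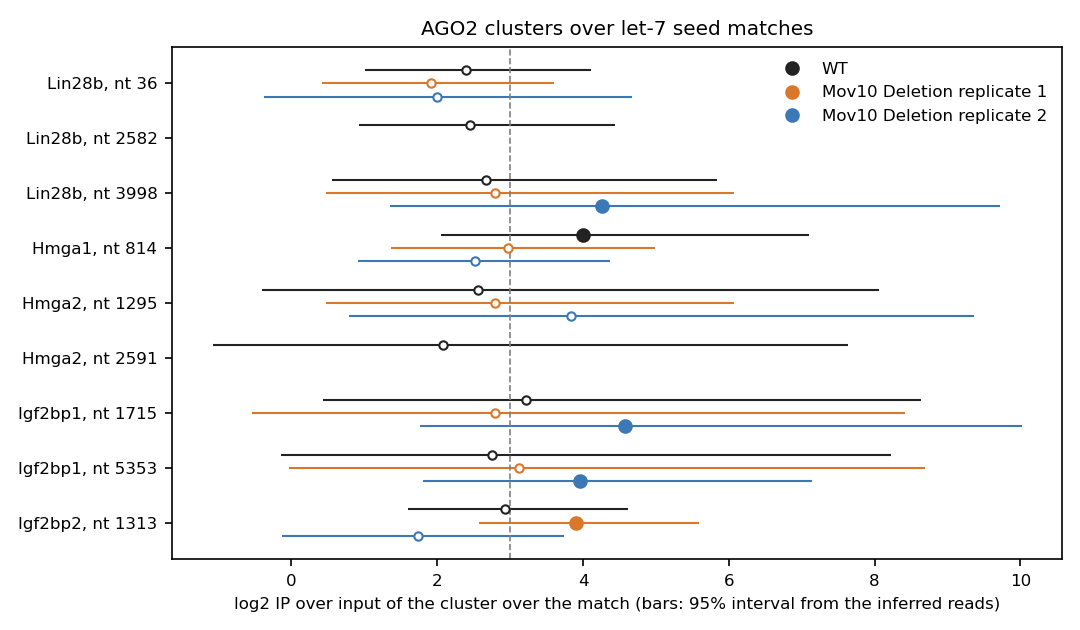
Each row is a 7-nt let-7 match under an AGO2 cluster in at least 1 library, and the x axis is the log2 IP over input of the cluster over it. Large filled points are enriched, horizontal bars are 95% intervals from the inferred reads, and the dashed line marks a log2 of 3. At every match with 3 points, the intervals of the WT and *Mov10* Deletion libraries overlap.

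The *Mov10* Deletion libraries gave the same 215 clusters in the 6 genes and can be set side by side. No cluster was enriched in both. Of the 12 enriched in replicate 1, the values in replicate 2 ran from 0.25 to 2.52 with a median of 1.25, and in 6 of them replicate 2 had 1 IP read. Of the 8 enriched in replicate 2, the values in replicate 1 ran from 0.80 to 3.12 with a median of 1.59, and in 4 of them replicate 1 had 1 IP read. Over all 614927 shared clusters, 4363 were enriched in both, which is 13.7% of those enriched in replicate 1 and 22.9% of those enriched in replicate 2. The median absolute difference in log2 was 1.54 both in the 6 genes and over all shared clusters. With a lower log2 threshold of 2, 3 clusters passed in both libraries, the *Lin28b* cluster at nt 2217 to 2408 and the 2 adjoining *Hmga1* clusters at the let-7 match.

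**Figure D4:**
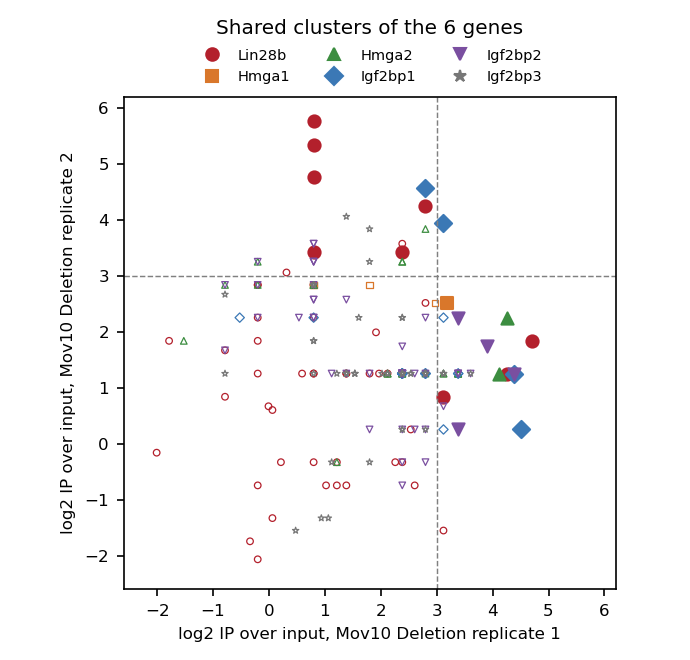
Each point is 1 of the 215 clusters shared by the *Mov10* Deletion libraries, with its log2 IP over input in replicate 1 on the x axis and in replicate 2 on the y axis. Filled points are enriched in 1 library, and the dashed lines mark a log2 of 3. No filled point lies in the upper right corner with both values enriched, and 4 *Lin28b* clusters stand high in replicate 2 at a replicate 1 value of 0.80.

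The genotypes were not tested against each other because WT had 1 library, and no difference between WT and *Mov10* Deletion in these genes can be set against the spread between WT brains. The libraries also differed in level, with a median log2 over all clusters of 0.76 in WT, 1.12 in replicate 1 and 1.25 in replicate 2. At the matches covered in all 3 libraries, WT therefore has no order against *Mov10* Deletion that can be read from the deposited values alone.

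Other genes of the let-7 pathway were read in the same libraries. Of 26 other known let-7 targets, all of which had an AGO2 cluster, 20 had an enriched cluster in WT, and 23 and 19 had one in the first and second *Mov10* Deletion library. A let-7 target cluster was found in 13, 15 and 10 of them. Over all genes with an AGO2 cluster, 19.1%, 41.5% and 32.5% had an enriched cluster, and 6.63%, 9.95% and 4.87% a let-7 target cluster. In 12 of them an enriched AGO2 cluster lay under a let-7 target cluster in WT and in at least 1 *Mov10* Deletion library, which was true of *Hmga1* alone among the 6 genes. These 12 were *E2f5*, *E2f6*, *Cdc34*, *Myc*, *Mycn*, *Nras*, *Igf1r*, *Igf2*, *Plagl2*, *Tgfbr1*, *Bach1* and *Thbs1*, and their highest WT log2 there ran from 3.51 in *Thbs1* to 7.85 in *Igf2*, the growth factor gene whose mRNA the *Igf2bp* proteins bind. *Igf2* had 7.68 in replicate 1 and 6.62 in replicate 2, and *Nras*, which encodes a small GTPase, had 4.33, 3.92 and 4.71. An enriched cluster under a let-7 target cluster was found in all 3 libraries in 5 of the 12 (*E2f6*, *Nras*, *Igf1r*, *Igf2* and *Tgfbr1*), and in none of the 6 genes.

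Of 11 genes of let-7 maturation, 3 of the 10 with an AGO2 cluster in WT had an enriched one, as did 7 of 11 in *Mov10* Deletion replicate 1 and 5 of 11 in replicate 2. *Dicer1*, whose product cuts the let-7 precursor, had an enriched cluster under a let-7 target cluster in every library, at 4.39, 4.30 and 4.48, and so did *Khsrp*, whose product binds the precursor, at 3.31, 5.10 and 3.25. The share of the 6 genes with a let-7 target cluster was 33.3% in WT, 33.3% in replicate 1 and 16.7% in replicate 2, against 50.0%, 57.7% and 38.5% of the other targets. The difference between these lists was not tested.

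**Figure D5:**
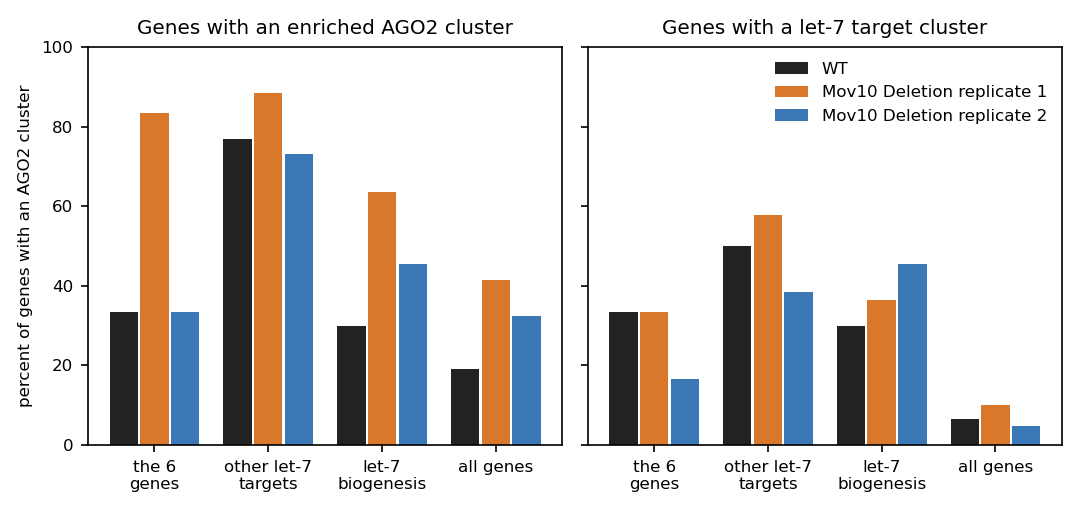
Bars give the percent of genes with an AGO2 cluster that had an enriched AGO2 cluster (left) or a let-7 target cluster (right), for the 6 genes, 26 other let-7 targets, 11 genes of let-7 maturation and all genes, in each library. In WT 33.3% of the 6 genes and 76.9% of the other targets had an enriched cluster, against 19.1% of all genes with an AGO2 cluster.

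As a check of the tissue, the markers of brain cells all had an AGO2 cluster in every library. An enriched cluster was found in 2, 4 and 4 of the 5 neuron markers, in 0, 3 and 2 of the 4 of radial glia and astrocytes, and in 0, 2 and 1 of the 3 of the oligodendrocyte lineage, in WT and the *Mov10* Deletion replicates in turn. Over all genes with an AGO2 cluster the share was 19.1%, 41.5% and 32.5%, also lowest in WT. The neuron marker *Rbfox3* held 296, 681 and 681 clusters, against a median of 7, 10 and 10 over all genes. These counts therefore do not measure cell content. Both erythrocyte markers had clusters too, enriched in 2, 2 and 1 of them. Of the 2 liver markers 1 had a cluster in each library, none enriched. Of the 2 skeletal muscle markers 1 had a cluster in WT and 2 in *Mov10* Deletion, and *Acta1* was enriched in replicate 2 alone. The part these markers play in the values of the 6 genes was not tested.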

How the data were processed

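AGO2 clusters and target clusters of 3 IP libraries were analysed, and the 3 inputs entered only through the authors' ratios. Per the methods and the submitters' processing notes, the authors used UMI-tools 1.1.1, cutadapt 3.2, STAR 2.7.7a and Bowtie 1.2.3 with mm10, removed PCR duplicates by molecular identifier and called clusters with CLIPper. For each AGO2 cluster the authors deposited a log2 ratio of IP to input with its −log10 p, and for each target cluster a miRNA and a score, which the sources used here do not describe. Total depth is unknown.

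Gene bodies were those of RefSeq on GRCm38.p6, with strands from GENCODE vM39, and a cluster needed 1 nt of overlap. Cluster positions are in mm10 and site positions in GRCm39, both counted from 1. They were linked through promoter and hairpin sequences of RefSeq, whose distance between the builds was a single value within 400000 nt of each gene. The longest 3'UTR was taken from protein-coding transcripts alone, which left out transcripts marked for decay and was decided after these were seen. Seed matches were searched on the sense strand.

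Reads were inferred as the whole numbers whose ratio, times a constant of the library, gave the deposited log2 and whose p, exact where an observed or predicted number was under 5 and otherwise chi-square, gave the deposited −log10 p. A pair was found for 108, 211 and 208 clusters of the 6 genes. On data simulated with the same ratio and p rules, the pair was recovered for 100% of enriched clusters. That recovery checks the search alone and cannot show that the model holds for the deposited values. Among sampled deposited clusters, a pair was found for 80.3% (WT), 86.9% (first *Mov10* Deletion library) and 88.6% (second). Intervals are Clopper-Pearson and cover counting error only, and those of single clusters rest on this model. Genes, lists and clusters named were fixed by rule, namely the 6 genes with their highest enriched, let-7 target and seed-match clusters, but members and lists were chosen with earlier results of these data known. Other clusters named were chosen after their values were seen. Python 3.11.15, pandas and scipy were used.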

Additional observations from a re-analysis of the deposited data

How the results depend on the processing

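Of 71 alternative values computed for 22 counts, 52 stayed within 1.5 times the reported count. With a −log10 p of at least 5, enriched clusters of the 6 genes numbered 3 in *Mov10* Deletion replicate 1 and 4 in replicate 2, genes with one to 3 in replicate 1, and all genes with one to 3803 and 2765. With a log2 of at least 2, enriched clusters numbered 7 in WT, 15 in replicate 1 and 11 in replicate 2. Those enriched in both *Mov10* Deletion libraries numbered 3 in place of 0. A minimum of 16 inferred IP reads, the same for every library, was chosen after seeing the data. With it, replicate 1 kept 2 clusters in 2 genes and replicate 2 kept 3 clusters in 1 gene, while WT kept 3. A WT call over 1 input read already needs 16, so WT could not lose any. Asking for enrichment in only one *Mov10* Deletion library gave 8 to 12 clusters. With a score of at least 5, let-7 target clusters were 1, 1 and 0 in WT and *Mov10* Deletion replicates 1 and 2, and target clusters of any miRNA 3, 4 and 1. Counting a cluster only inside the gene body, moving the 3'UTR by 4 nt either way, taking 6-nt matches, using other transcripts for the 3'UTR and leaving out miR-98 kept every count within 1.5 times. No paired analysis was possible because no test was run, and the WT group has a single replicate. Few reads per cluster limit what can be told apart.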
